A study of Mus musculus with 2 samples.

Results

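Genes for histone deacetylases, sirtuins, histone demethylases, histone methyltransferases and ATP-dependent chromatin remodellers were compared between primitive and maturing haematopoietic stem cells (HSC) of the mouse. The members were the genes whose annotated symbol began with Hdac, Sirt, Kdm, Kmt or Chd followed by a number of the family, or with Smarca to Smarce, on probe sets that carry a single gene symbol. Kdm5d was left out. The rule gave 50 genes, read by 78 probe sets, of 12393 genes on the array. They comprised 8 Hdac, 5 Sirt, 12 Kdm, 7 Kmt, 12 Smarc and 6 Chd genes. Both populations were sorted by flow cytometry from untreated bone marrow cells held for 30 min in culture, and the study hybridised 1 Affymetrix array per population. The sources used here give no strain, age or sorted surface markers. The hybridised material, per the labels' protocols, came from a phage library of PCR-amplified, size-fractionated cDNA, so each array reports a single library of a population. With 1 array per group no test was possible, and every difference below describes this pair of libraries.

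Chromatin is opened and closed by enzymes that write and erase small chemical marks on histone tails and by motors that slide, evict or exchange nucleosomes. Deacetylases and sirtuins remove acetyl groups, Kmt2 and Kmt5 enzymes add methyl groups, Kdm enzymes remove them, and Smarc and Chd proteins form or power the remodelling complexes. In blood stem cells several of these factors, among them the Kmt2a methyltransferase and the SWI/SNF complex, are known for roles in self-renewal and lineage choice.

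A member counted as measured when its intensity exceeded a floor of 441.05, the pooled median of all non-control probe sets, on at least 1 array. Of the 50 members, 45 were measured, 33 of them above the floor on both arrays. The other 12 were above the floor on 1 array, 8 on the maturing and 4 on the primitive array, and give only a lower bound on the difference. Kdm7a, Kmt2d, Sirt2, Smarca1 and Smarcd3 were at or under the floor on both arrays and have no ratio.

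Among the 45 measured members, 10 passed 2-fold toward maturing HSC and 1 passed it toward primitive HSC. Over all 8852 measured genes, 17.6% passed 2-fold toward maturing HSC and 15.6% toward primitive HSC, so the members' 22.2% toward maturing HSC was near the background and their 2.22% toward primitive HSC was below it. At 4-fold, 5 of the 45 measured members were higher in maturing HSC, against 415 of all 8852 measured genes (4.69%). In primitive HSC 0 of the 45 were higher, against 305 of the 8852 (3.45%). The 5 were Sirt1, Smarcc1, Smarcal1, Kdm3a and Kdm3b. Of the other 34 measured members, 25 lay within 2-fold with both arrays above the floor, and 9 had bounds under 2-fold, which set no upper limit on their difference. Among the 39 members with no disagreeing probe sets, 8 (20.5%) passed 2-fold toward maturing HSC and 0 toward primitive HSC. Of these 39, 31 had 1 measured probe set and so could not disagree. The 39 leave out Smarca4, the 1 member past 2-fold toward primitive HSC, so their 0 was fixed by that choice. The median log2 ratio of primitive over maturing was -0.17 over the members and 0.07 over all measured genes. By any amount, 25 members were higher in maturing HSC (55.6%), against 47.3% of all genes.

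**Figure D1:**
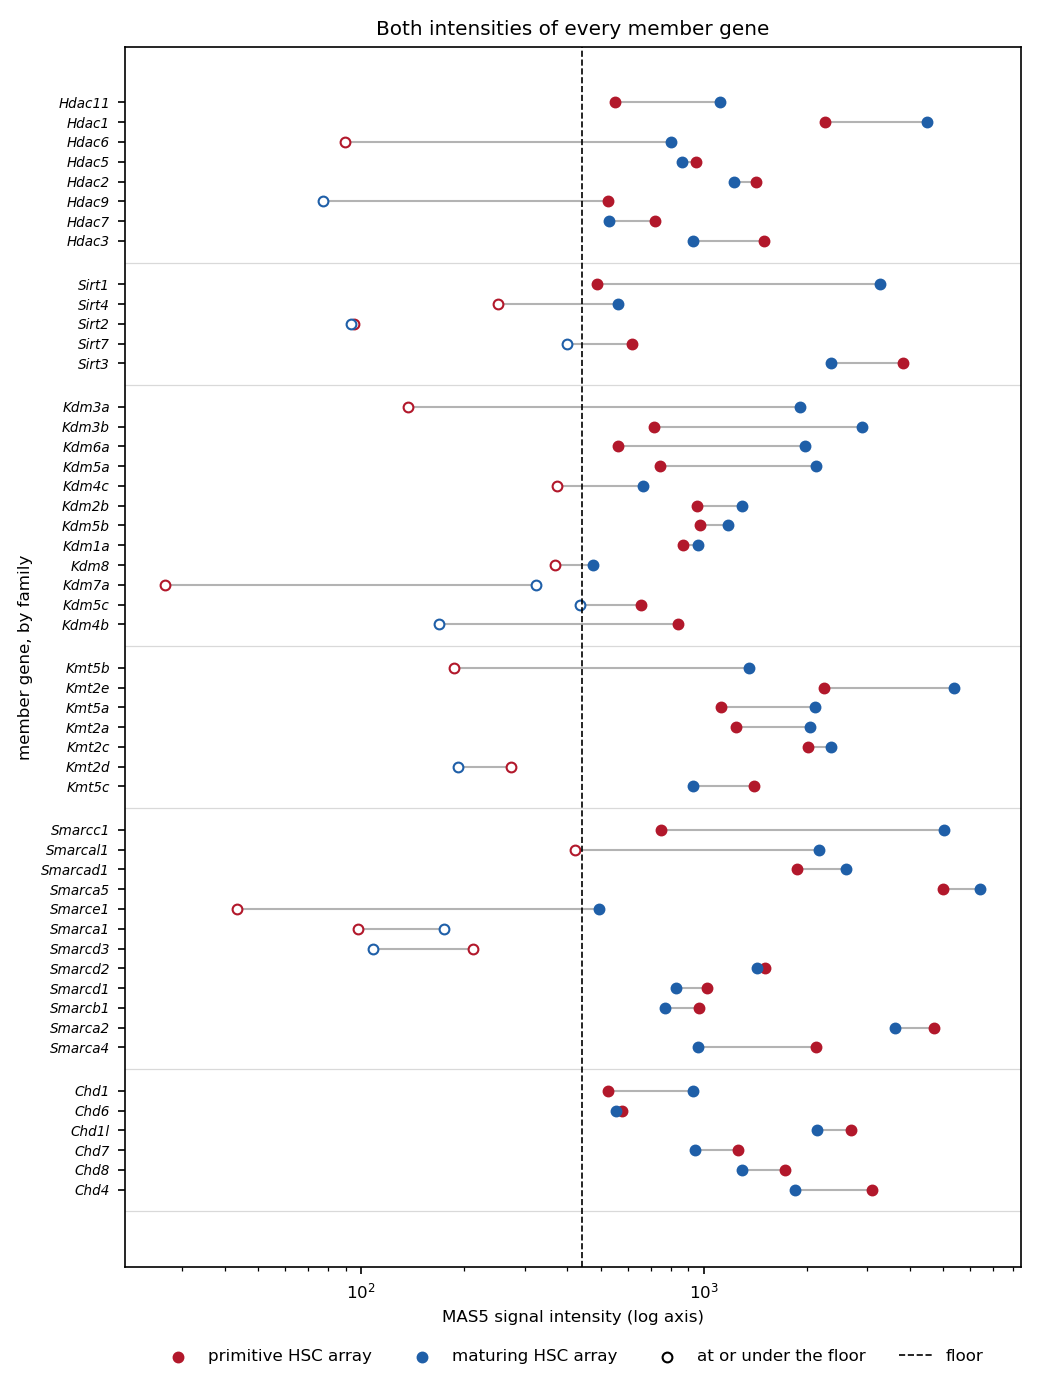
Signal intensity (log axis) of all 50 member genes on the primitive (red) and maturing (blue) HSC arrays, grouped by family in the order Hdac, Sirt, Kdm, Kmt, Smarc and Chd, with 1 array per population and no error bars. Open circles are at or under the floor of 441.05 (dashed line). The widest gaps between 2 filled circles belong to Sirt1 (487 and 3280) and Smarcc1 (751 and 5037), with the maturing value on the right in both.

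The families did not share a direction. The Kmt median was -0.82 over 6 measured genes and the Kdm median -0.44 over 11, and both were negative under each of the 10 alternative settings. Over these the Kmt median ran from -1.79 to -0.25, the latter with the median of probe sets. The Kdm median ran from -1.35 to -0.27. The Chd median was 0.37 over 6 genes, the Hdac median 0.18 over 8 and the Sirt median 0.07 over 4, and scaling to the hybridisation controls turned these to -0.60, -0.84 and -0.60. Leaving out probe sets shared by several transcripts also turned the Hdac median, to -0.36, and the Sirt median, to -0.35. The Sirt median was negative too with the floor at percentile 25 (-0.26) or 75 (-0.49). It was -1.03 when genes with only a bound were left out. The Smarc median was -0.05 over 10 genes and turned to 0.07 after quantile normalization and 0.04 after lowess. It turned to 0.19 when genes with only a bound were left out. Other choices moved the medians of small families as well, with the Sirt median between -1.03 and 0.11 and the Smarc median between -1.23 and 0.19 over the alternatives. Of the 10 members at least 2-fold higher in maturing HSC, 4 were Kdm, 2 Kmt, 2 Smarc, 1 Sirt and 1 Hdac genes, and both Kmt genes, Kmt2e and Kmt5b, had probe sets in opposite directions. The Chd family had 0 members past 2-fold in either direction. Scaling to the hybridisation controls, bacterial and phage transcripts added as a standard, moved the median of all genes from 0.07 to -0.74 and left 2 members, Smarca4 and Kdm4b, higher in primitive HSC. The members' median minus that of all genes was -0.23 on the log2 scale in the main setting and -0.16 with that scaling.

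**Figure D2:**
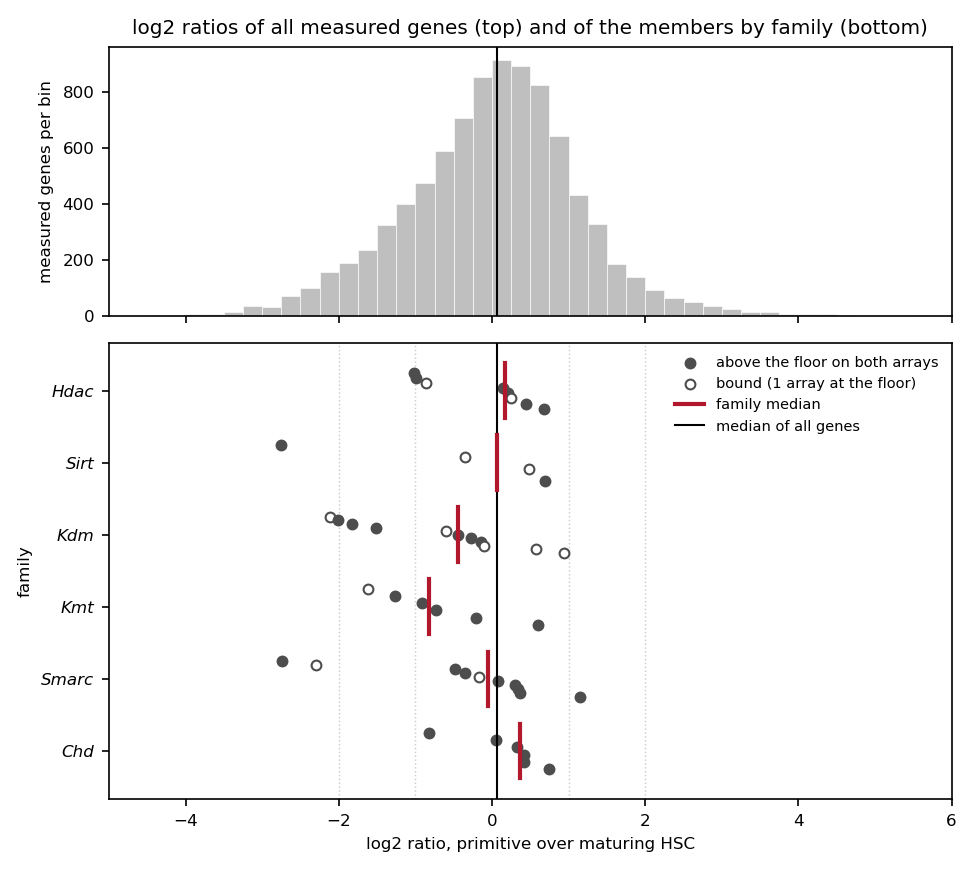
Top, number of all 8852 measured genes per bin of log2 ratio of primitive over maturing HSC, with negative values toward maturing HSC. Bottom, log2 ratio of each measured member by family, filled where both arrays were above the floor and open where the ratio is a bound, with the family median in red, the median of all genes (0.07) as a black line and dotted lines at 2-fold and 4-fold. The Kmt and Kdm medians lie at -0.82 and -0.44. The Chd, Hdac and Sirt medians (0.37, 0.18 and 0.07), at or right of the line, turn negative when scaled to the hybridisation controls. Without probe sets shared by several transcripts the Hdac and Sirt medians also turn, to -0.36 and -0.35. The Sirt median is negative too with the floor at percentile 25 or 75 and with bounds left out. The Smarc median of -0.05 turns positive after quantile normalization, after lowess and with bounds left out.

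Among the class I deacetylases, the catalytic subunits of nuclear corepressor complexes, the 3 measured genes lay within 2-fold. Hdac1 read 2260 in primitive and 4478 in maturing HSC, a log2 ratio of -0.99 that falls just short of 2-fold. Its close paralogue Hdac2 read 1423 and 1227, a ratio of 0.21. Hdac3, the enzyme of the NCoR and SMRT corepressors, read 1498 and 932, a ratio of 0.68. Hdac1 was thus the lone class I gene with the higher value on the maturing array, and after scaling to the hybridisation controls Hdac2 (-0.76) and Hdac3 (-0.29) also lay toward maturing HSC.

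Class II deacetylases are signal-responsive enzymes that shuttle between nucleus and cytoplasm or, for Hdac6, act mainly on cytoplasmic proteins such as tubulin. Hdac5 read 949 in primitive and 863 in maturing HSC. Hdac7, known for its role in lymphocytes, read 720 and 530. These ratios of 0.14 and 0.44 were small beside the SD of 0.82 between probe sets of a gene, taken over 1318 genes with both arrays above the floor. Hdac9 was above the floor in primitive HSC alone (525, against 77.3), at least 1.19-fold higher there, and Hdac6 in maturing HSC alone (801, against 89.5), at least 1.82-fold higher there. With the floor at percentile 25 these bounds were 1.90 and -2.51 on the log2 scale. Hdac11, the single class IV enzyme, read 550 in primitive and 1119 in maturing HSC. Its ratio of -1.02 was just past 2-fold, and stayed past it under 6 of the 10 alternatives, while its second probe set gave 127 and 869, at least 1.97-fold higher in maturing HSC. Hdac4, Hdac8 and Hdac10 were not analysed here.

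Sirtuins are deacylases that consume NAD and so tie protein acetylation to metabolism. Sirt1, the nuclear member that acts on histones and on transcription factors, had the lowest ratio of all members. It read 487 in primitive and 3280 in maturing HSC, 6.73-fold higher in maturing HSC (log2 ratio -2.75). The primitive value lay just above the floor. The range over the 10 alternative settings was -3.40 to -1.68, past 2-fold in each, though with 1 probe set the median of probe sets could not change it. Sirt3, a mitochondrial enzyme, pointed the other way within 2-fold, with 3814 in primitive and 2360 in maturing HSC (0.69, or -0.28 scaled to the hybridisation controls). Sirt4, also mitochondrial, was above the floor in maturing HSC alone (252 and 562), and Sirt7, a nucleolar enzyme, in primitive HSC alone (619 and 399). Both bounds were under 1.5-fold, at 1.27-fold and 1.40-fold. Sirt2, a largely cytoplasmic enzyme, read 95.3 and 93.4, under the floor on both arrays.

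The stretches before the start of Sirt1 and of Smarcc1, the members with the lowest ratios, are shown because both genes were over 6-fold higher in maturing HSC. Each holds the 250 bases before the gene's start in RefSeq, build GRCm38.p6, 5′ to 3′ on the gene's strand, Sirt1 at chr10:63339036-63339285 on the minus strand and Smarcc1 at chr9:110131774-110132023 on the plus strand. Capitals mark matches on either strand to GGGCGG, known as a GC box, to the box named CCAAT, to the E-box letters CACGTG and to the ETS site letters CCGGAAG, and no match to one motif overlaps a match to another.
Sirt1: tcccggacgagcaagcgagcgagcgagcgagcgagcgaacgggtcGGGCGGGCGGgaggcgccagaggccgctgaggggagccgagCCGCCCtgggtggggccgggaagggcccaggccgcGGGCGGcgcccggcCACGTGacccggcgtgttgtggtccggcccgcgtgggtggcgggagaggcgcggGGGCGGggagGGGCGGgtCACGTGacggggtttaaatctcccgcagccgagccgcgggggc
Smarcc1: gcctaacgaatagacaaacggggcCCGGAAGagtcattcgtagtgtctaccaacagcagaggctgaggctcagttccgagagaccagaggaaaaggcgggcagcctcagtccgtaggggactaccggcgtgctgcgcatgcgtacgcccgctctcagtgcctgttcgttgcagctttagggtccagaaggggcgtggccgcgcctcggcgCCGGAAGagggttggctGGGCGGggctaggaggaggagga
The Sirt1 stretch is 79.2% G and C and holds 6 matches to the GC box, of which the first 2 overlap, and 2 to the E-box. The Smarcc1 stretch is 63.6% G and C and holds 1 GC box and 2 ETS matches. The GC box occurs in 32.7% of the 32851 promoters of that length and in 70.2% of the 57 promoters listed for 41 members. The E-box occurs in 6.02% of all promoters and 5.26% of those of members, the ETS motif in 6.91% and 10.5%, and CCAAT in 33.8% and 35.1%. The arrays did not measure binding, and these matches describe letters in the window.

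Demethylase genes held 4 of the 10 members at least 2-fold higher in maturing HSC. Kdm3a and Kdm3b, a pair of paralogues whose enzymes remove a repressive methyl mark from histone H3, were both past 4-fold. Kdm3b read 718 in primitive and 2897 in maturing HSC, 4.04-fold higher in maturing HSC. Kdm3a read 137, under the floor, and 1909, at least 4.33-fold higher in maturing HSC. With the floor at percentile 75 its bound was -0.89 on the log2 scale, inside 2-fold. Kdm6a, the X-linked enzyme that erases the mark set by Polycomb, read 561 and 1981 (-1.82), and its second probe set read 511 and 1444 (-1.50). Kdm5a, which erases an active promoter mark, read 747 and 2133, 2.86-fold higher in maturing HSC. The ratios of Kdm3b and Kdm5a were past 2-fold under each alternative that measured them. Each has 1 probe set, so the median of probe sets could not change its ratio.

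The brightest probe sets of Kdm5b, Kdm1a and Kdm2b were within 2-fold, and Kdm5c, Kdm4b, Kdm4c and Kdm8 had only bounds. Kdm5b read 973 in primitive and 1174 in maturing HSC (-0.27). Kdm5c was above the floor in primitive HSC alone, with 658 against 434, at least 1.49-fold higher there. The Kdm5 genes therefore did not share a direction, with Kdm5a and Kdm5b toward maturing and Kdm5c toward primitive HSC, where Kdm5c turned to -0.38 when scaled to the hybridisation controls. Kdm4b and Kdm4c, of a group that acts on trimethylated histone H3, were opposed as well. Kdm4b read 842 in primitive and 169 in maturing HSC, a bound of at least 1.91-fold. Its ratio was 2.32 with the floor at percentile 25. Kdm4c read 373 and 667, at least 1.51-fold higher in maturing HSC. Kdm1a, the flavin-dependent demethylase of the CoREST complex, read 872 and 965 (-0.14), while its second probe set read 118 and 1318, at least 2.99-fold higher in maturing HSC. Kdm2b, which brings a variant Polycomb complex to CpG islands, read 953 and 1291 (-0.44). Kdm8 read 369 and 474, at least 1.07-fold higher in maturing HSC. Kdm7a read 26.8 and 324, both under the floor.

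Of the Kmt2 genes, whose products methylate histone H3 at promoters and enhancers, the 3 measured were all higher in maturing HSC, and 1 of them passed 2-fold. Kmt2a, also known as MLL, read 1238 in primitive and 2048 in maturing HSC (-0.73). Kmt2c, an enhancer methyltransferase gene, read 2022 and 2347 (-0.22). Kmt2e, whose protein is not known to methylate histones efficiently, read 2246 and 5388, 2.40-fold higher in maturing HSC, but its second probe set read 2694 and 1678, 1.61-fold higher in primitive HSC. The Kmt2e direction thus depended on the probe set, and its ratio was 0.68 once probe sets shared by several transcripts were left out. Kmt2d read 275 and 192, under the floor on both arrays.

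The Kmt5 enzymes methylate histone H4, and Kmt5a sets the first methyl group, to which Kmt5b and Kmt5c add. Kmt5a read 1122 in primitive HSC, against 2107 in maturing HSC (-0.91), and its second probe set gave at least 1.66-fold in that direction. Kmt5c read 1403 and 930, 1.51-fold higher in primitive HSC, or -0.38 on the log2 scale when scaled to the hybridisation controls. Kmt5b gave opposed readings. Its brightest probe set read 187 and 1354, at least 3.07-fold higher in maturing HSC. Another read 1161 and 105, at least 2.63-fold toward primitive HSC, and yet another 840 and 399, at least 1.90-fold in that direction. No direction can be given for Kmt5b as a gene.

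The SWI/SNF complex carries 1 of a pair of alternative ATPases, Smarca4 (BRG1) or Smarca2 (BRM), on a core of Smarcc, Smarcb, Smarcd and Smarce subunits. Smarca4 was the lone member to pass 2-fold toward primitive HSC in the main setting, with 2134 in primitive and 961 in maturing HSC (1.15). Its second probe set read 147 and 1399, at least 3.17-fold toward maturing HSC, and the median of its probe sets gave -1.05. Smarca2 read 4693 and 3627 (0.37), and its second probe set 1129 and 2595 (-1.20). For both ATPases, therefore, the probe sets of a single gene pointed in opposite directions.

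The core subunits differed more clearly at Smarcc1, the scaffold on which the complex assembles. Smarcc1 read 751 in primitive and 5037 in maturing HSC, 6.71-fold higher in maturing HSC (-2.75), and its second probe set read 283 and 2057, at least 4.66-fold higher there. The ratio ran from -3.72 to -2.29 over the 10 alternatives, past 4-fold in each. The brightest probe sets of its partners Smarcb1, Smarcd1 and Smarcd2 lay within 2-fold. Smarcb1 read 972 and 770 (0.34), Smarcd1 1020 and 830 (0.30) and Smarcd2 1507 and 1432 (0.07), with ratios of -0.64, -0.68 and -0.90 when scaled to the hybridisation controls. Smarcd2, known for a role in granulocyte development, had a further probe set at 88.7 and 1523, at least 3.45-fold higher in maturing HSC. Yet another of its probe sets read 234 and 583, at least 1.32-fold higher there. Smarce1 read 43.4 and 496, at least 1.12-fold toward maturing HSC, a bound that was -1.82 with the floor at percentile 25, and Smarcd3, a subunit known from heart muscle, read 212 and 108, under the floor.

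The remaining Smarc genes encode motors outside SWI/SNF, and the 3 measured were all higher in maturing HSC. Smarca5, the ISWI ATPase, read 5003 in primitive HSC, against 6410 in maturing HSC (-0.36), and its other probe sets gave -1.52 and at least 1.94-fold in the same direction. Smarcad1, a remodeller linked to DNA repair and replication, read 1871 and 2605 (-0.48). Smarcal1, which rewinds DNA at stalled replication forks, read 420 and 2166, at least 4.91-fold higher in maturing HSC, but its second probe set was under the floor on both arrays, and the median of both gave a bound of -0.34. Smarca1, the other ISWI ATPase, read 98.0 and 174, under the floor.

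Most Chd proteins are remodellers with chromodomains, which can bind methylated histones, and Chd1l lacks them. All 6 measured Chd genes were above the floor on both arrays, within 2-fold, and 5 of them had the higher value in primitive HSC, of which 0 kept it when scaled to the hybridisation controls. Chd4, the ATPase of the NuRD complex, read 3102 in primitive and 1852 in maturing HSC (0.74). Yet a second probe set read 456 and 1287 (-1.50), and another 147 and 473, at least 1.07-fold higher in maturing HSC. Chd8 read 1726 and 1293 (0.42) and Chd7, mutated in CHARGE syndrome, 1257 and 945 (0.41). Chd1l, a remodeller activated by poly(ADP-ribose), read 2697 and 2146 (0.33), and Chd6 576 and 554 (0.06). Chd1, which travels with transcribing RNA polymerase, was the exception, with 527 and 930 (-0.82) and a second probe set at least 1.59-fold higher in maturing HSC.

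Several members could be read more than once. Of 14 with more than 1 measured probe set, 8 had all probe sets in 1 direction (57.1%), against 55.6% over 2764 such genes, so agreement was near the background. All 8 agreed toward maturing HSC and 0 toward primitive HSC, where over all such genes 32.4% agreed toward maturing and 23.3% toward primitive HSC. They were Smarcc1, Kdm6a, Hdac11, Kmt5a, Chd1, Smarcad1, Smarca5 and Kdm1a. The 6 in both directions were Smarca4, Smarca2, Smarcd2, Chd4, Kmt2e and Kmt5b. Ratios also varied with intensity, with a median of 0.44 in the brightest decile of measured genes against 0.07 over all. The part of that trend in the directions of the probe sets was not tested. Counted by probe set, 18 of 63 measured member probe sets (28.6%) passed 2-fold toward maturing HSC and 2 (3.17%) toward primitive HSC. Over all 12964 measured probe sets those shares were 18.5% and 13.9%. This count by probe set was added after the values were seen, and it counts a gene with several probe sets more than once. Of the 11 members past 2-fold, Kdm3a, Kdm3b, Kdm5a, Sirt1 and Smarcal1 rest on 1 measured probe set.

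**Figure D3:**
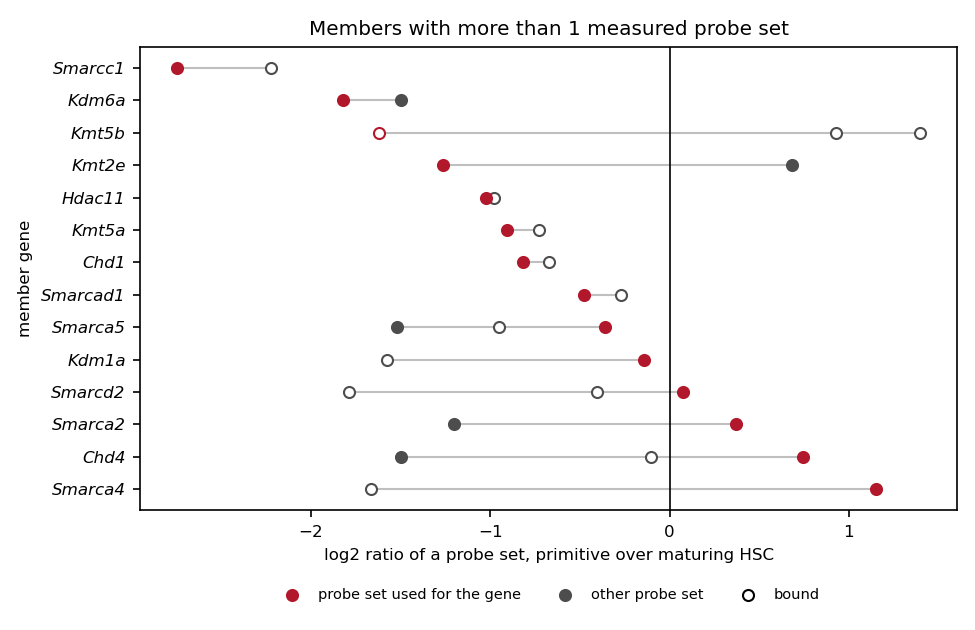
Log2 ratio of primitive over maturing HSC for every measured probe set of the 14 members with more than 1, ordered by the probe set used for the gene (red), with open circles for bounds. The probe sets of 8 genes, from Smarcc1 to Kdm1a, lie left of 0, toward maturing HSC, and those of Kmt5b, Kmt2e, Smarcd2, Smarca2, Chd4 and Smarca4 lie on both sides.

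Lists of 8 kinds of partner genes, none of them members, gave the surroundings of these families. Each named partner gene was read from its brightest probe set, and the directions of any other probe sets were not compared. Among 105 measured genes of 124 on the array, 28 (26.7%) passed 2-fold toward maturing HSC and 13 (12.4%) toward primitive HSC, against 17.6% and 15.6% of all measured genes, which is also the background for each list. The median was -0.44. That median was -1.35 when scaled to the hybridisation controls. Subunits of the HDAC corepressor complexes had a median of -0.96 over 17 measured genes, the lowest of the 8 lists in the main setting, with 8 past 2-fold toward maturing and 1 toward primitive HSC. With the floor at percentile 25 that median was -1.54, and among genes with both arrays above the floor it was -0.41, where SWI/SNF subunits outside the Smarc names had the lowest, -0.87. Among the corepressor subunits, Gatad2b, of the NuRD complex, read 88.2 on the primitive and 2937 on the maturing array, at least 6.66-fold higher in maturing HSC. Mta2, also of NuRD, was at least 3.94-fold and the CoREST scaffold gene Rcor1 at least 3.41-fold higher there.

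Histone acetyltransferases, which oppose the deacetylases, had 3 of 9 measured genes past 2-fold toward maturing and 2 toward primitive HSC. Kat7 read 991 and 3062 (-1.63), while the coactivator genes Ncoa3, with 4930 and 684 (2.85), and Crebbp, with 1449 and 515 (1.49), were higher in primitive HSC. Among 13 measured SWI/SNF subunits outside the Smarc names, 5 passed 2-fold toward maturing and 3 toward primitive HSC. Phf10, a subunit of the PBAF form, read 550 and 2577 (-2.23), and Bcl11a, a zinc finger subunit gene also known for globin switching, read 4104 and 919 (2.16). Partners of the MLL and SET1 methyltransferases had 3 and 2 of 12 past 2-fold toward maturing and primitive HSC, with their shared scaffold gene Wdr5 at 1531 and 3843 (-1.33).

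Among the remaining lists, other lysine methyltransferases had a median of 0.35 over 8 measured genes (-0.62 when scaled to the hybridisation controls), with 0 past 2-fold toward maturing and 1 toward primitive HSC, where Setd7 was at least 2.63-fold higher. Other Jumonji demethylases had -0.35 over 8 (0.20 after lowess), with Jmjd1c, which belongs to the Kdm3 group, at 2721 and 6361 (-1.22). It lay on the same side as Kdm3a and Kdm3b. ISWI partners and other remodellers had -0.32 over 19, with Bptf, the large subunit of an ISWI complex, at 1411 and 4120 (-1.55), and Chrac1, a small histone-fold subunit, at 4089 and 466 (3.13). Polycomb and DNA methyltransferase genes had -0.42 over 19, with 4 past 2-fold toward maturing and 2 toward primitive HSC. Uhrf1, which guides maintenance methylation, read 289 and 1801, at least 4.08-fold higher in maturing HSC. Dnmt3a, a methyltransferase of new sites, read 1814 and 757 (1.26).

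Markers of other cells differed between the arrays. Of 5 stem cell markers on the array, 4 were above the floor in primitive HSC, all but Tek, and 5 in maturing HSC, with summed intensities of 18107 and 9716. The summed intensity of 6 neutrophil and monocyte markers was 89513 in primitive and 45328 in maturing HSC, with Mpo and Csf3r under the floor in primitive HSC. For 5 T and natural killer cell markers the sums were 17292 and 8860. Cd3e and Cd3g were under the floor on both arrays, and Cd3d and Klrd1 in maturing HSC alone, which left 1 marker above it there. For 5 B cell markers the sums were 1672 and 2405, with Ebf1 and Pax5 under the floor on both and Vpreb1 in primitive HSC alone. For 4 erythroid markers the sums were 3011 and 1541, with Alas2 and Hba-a1 under the floor on both. The part of these cells in the members' ratios was not tested. In bulk samples of this kind, fewer cells with a transcript and less of it per cell cannot be told apart.

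**Figure D4:**
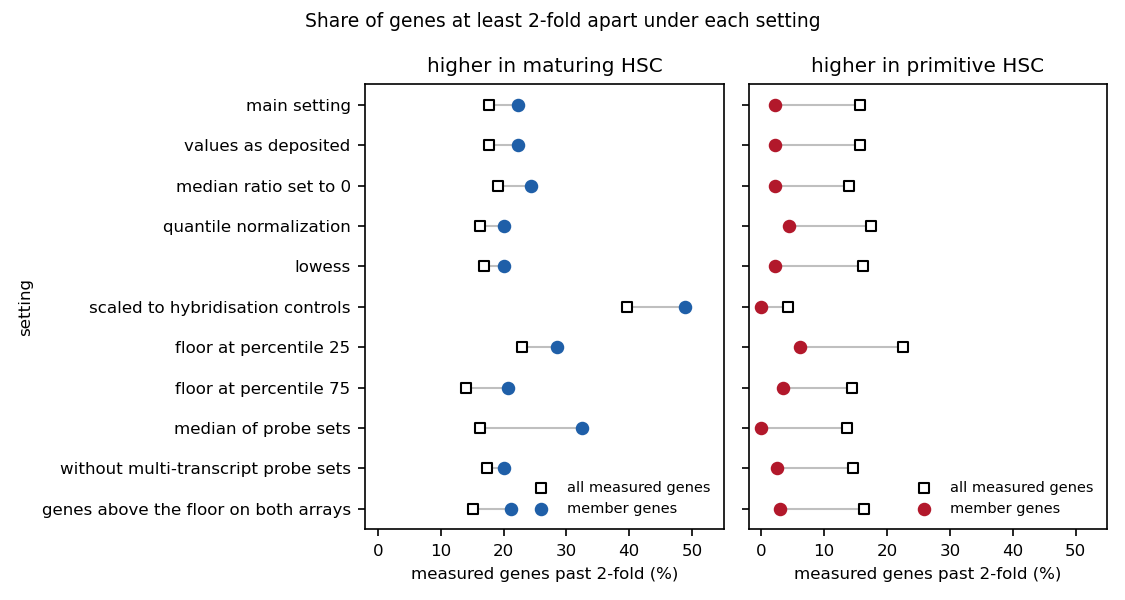
Percent of measured member genes (filled circles) and of all measured genes (open squares) at least 2-fold higher in maturing HSC (left) and in primitive HSC (right), under the main setting and 10 alternatives. The members' share toward primitive HSC (2.22% in the main setting) lies left of that of all genes (15.6%) in each row, and their share toward maturing HSC (22.2%) lies right of that of all genes (17.6%), with both shares toward maturing HSC highest when scaled to the hybridisation controls (48.9% and 39.6%).

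The plot of shares by setting shows how the counts moved. The members' median was below the median of all genes in all 11 settings, with differences of -0.42 to -0.16 on the log2 scale. Across those settings the share of members at least 2-fold higher in maturing HSC ran from 20.0% (lowess, quantile normalization, or without probe sets shared by several transcripts) to 48.9% (hybridisation controls).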

How the data were processed

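The authors deposited 1 linear signal intensity per probe set and array, computed with MAS5 according to the processing notes of the submitters. MAS5 scales each array as a whole, which hides any difference in RNA content between the cells. Both arrays were rescaled to a common 2% trimmed mean, which changed the values little. Genes were named through the platform annotation, from 20380 probe sets with 1 symbol, and the symbols of all 50 members matched RefSeq through Entrez identifiers. Each gene was read from its probe set of highest mean intensity, and intensities under the pooled median (441.05) were set to that floor before log2 ratios of primitive over maturing were taken. The steps were tested on simulated arrays without noise, with changes planted in bright genes alone. That test cannot speak to members near the floor or to probe sets that disagree. The members and lists were chosen with earlier results of these data known. Named genes were those at least 2-fold apart, fixed sets of paralogues, the member with the highest intensity in each family and up to 4 genes of each partner list, and the members Chd1l, Hdac6, Kdm7a, Kdm8, Smarcad1, Smarcb1 and Smarce1, outside that rule, were added after their values were seen. A single array per group allows neither replicates nor p-values, and the number of arrays limits the precision. Computations ran in Python 3.11.15 with pandas 2.3.3 and numpy 2.4.6, lowess in statsmodels 0.14.6, binomial intervals in scipy 1.17.1 and plots in matplotlib 3.10.9. Alternatives were other scalings, floors, probe set choices and thresholds.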

Additional observations from a re-analysis of the deposited data

How the results depend on the processing

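No paired analysis was possible because each group holds 1 array. Of the 11 members at least 2-fold apart, Sirt1, Smarcc1, Kdm3b and Kdm5a were past 2-fold in the same direction under each alternative that measured them. Sirt1, Kdm3b and Kdm5a have 1 probe set each, so the median of probe sets could not change their ratios. Kdm5a was not measured without probe sets shared by several transcripts. Kmt2e turned to 0.68 once probe sets shared by several transcripts were left out, and Kmt5b to 0.039 and Smarca4 to -1.05 with the median of probe sets. The count at least 2-fold higher in maturing HSC, 10, became 22 when scaled to the hybridisation controls and 6 with the floor at percentile 75. The count at 4-fold, 5, became 9 and 1 under the same settings, 3 without genes at the floor on either array and 0 at 8-fold. The count at least 2-fold higher in primitive HSC, 1, became 2 after quantile normalization, 3 with the floor at percentile 25, and 0 when scaled to the hybridisation controls or with the median of probe sets. At 4-fold it went from 0 to 1 with the floor at percentile 25. Scaling to the hybridisation controls moved the members' median from -0.17 to -0.90 and the Kmt median from -0.82 to -1.79. That scaling lowers each ratio by 0.97 on the log2 scale unless a value is at the floor, and fewer genes are measured with the higher floor. Of 411 single-member values under alternatives, 355 moved by less than 1 SD between a gene's probe sets, and 33 of the 53 that moved further did so with the hybridisation controls. These counts were partly fixed in advance and do not measure robustness. Genes above the floor on both arrays repeat their main values, values as deposited barely differ, and a median over 1 probe set changes nothing. The shift of 0.97 by itself exceeds that SD of 0.82. Members near the floor on an array have only bounds.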
